A study of Arabidopsis thaliana with 6 samples.

Results

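The activating factors of ERF group IX were examined in leaves in which the immune receptor RPS4 had been switched on. They were chosen as 10 named rows among the 32678 genes of the count table, by their AGI locus identifiers, as named factors of the group and not by a threshold on a measured value. The choice was made with earlier results of these data known. The rows are ERF-1 (also ERF1A, AT4G17500), ERF2 (AT5G47220) and ERF13 (AT2G44840) of subgroup IXa, ERF5 (AT5G47230), ERF6 (AT4G17490), ERF104 (AT5G61600) and ERF105 (AT5G51190) of subgroup IXb, and ERF1 (AT3G23240), ERF15 (AT2G31230) and ORA59 (AT1G06160) of subgroup IXc. ERF1 and ERF-1 are different genes despite their names. All 10 had enough counts to be tested.

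Polyadenylated leaf RNA of Arabidopsis was sequenced from Col-0, the wild-type without a transgene, and from Col-0 35S:RPS4-HS, called 35S:RPS4 here, with 3 libraries per genotype. Plants of both genotypes spent 3.5 weeks at 28 °C, a temperature that holds RPS4 signalling back, and were then moved to 19 °C, which releases it, and harvested 2 h later. The question is how the levels of these factors differ between the genotypes at that time. In this model a constitutive viral promoter drives RPS4 in 1 line, Col-0 shared the temperature shift, and no library from before the shift was analysed, so a difference already present at 28 °C cannot be told apart from one that arose within the 2 h.

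Ethylene response factors (ERFs) are plant transcription factors with an AP2/ERF DNA-binding domain. Members of group IX mostly activate transcription through the GCC-box, a short element in the promoters of defence genes. ERF1, ORA59 and their relatives in IXc sit where the ethylene and jasmonate pathways meet, while several IXb factors are phosphorylated by the MAP kinases MPK3 and MPK6 after immune or stress signals.

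The libraries held 28659022 to 31007551 gene counts, and 18382 genes were tested. RPS4 itself (AT5G45250) had 21.2, 29.8 and 30.2 CPM (counts scaled to a common library size with TMM factors) in Col-0 replicates 1 to 3 and 605, 759 and 907 CPM in 35S:RPS4. Every library thus matched its label, with a log2 fold change (log2FC, 35S:RPS4 minus Col-0) of 4.81 ± 0.22 (SE, edgeR FDR = 3.25e-05), although native and transgenic transcripts cannot be told apart. The summed CPM of 4 leaf mesophyll markers was 31216 to 33476 in Col-0 and 32706 to 37052 in 35S:RPS4, and 0 of them was called. Root hair markers summed to 1 count, pollen markers to 6 and flower markers to 86 over all 6 libraries. Guard cell markers reached 19.1 to 21.4 CPM in Col-0 and 21.6 to 25.4 CPM in 35S:RPS4. In bulk leaf RNA, a change in the number of cells of a type and a change in RNA per cell cannot be told apart.

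Of the 10 members, 9 were raised in 35S:RPS4 and 0 were lowered, at an edgeR FDR below 0.01 and an absolute log2FC above 1. Across all tested genes, 6.46% were raised and 1.37% were lowered by the same thresholds. Since the members were chosen with earlier results of these data known, their count is no test of the group. The median log2FC of the members was 5.94, and it was the same with ERF1 set at its lower bound. The median over all tested genes was 0.01. Among the 10 members, IXa had 3 of 3 raised, IXb 4 of 4 and IXc 2 of 3. The 7 other group IX genes were not split by subgroup here, and of the 3 tested, 1 was raised and 1 lowered. The member that was not called, ORA59, lay lower in 35S:RPS4 than in Col-0, and 2 of 15 alternative analyses called it lowered. The levels of the 2 genotypes did not overlap for any of the 10 genes, with all 3 libraries of 35S:RPS4 above those of Col-0 in 9 and below them in 1. Of all tested genes, 17.9% lay wholly above and 16.3% wholly below, 34.2% together.

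**Figure D1:**
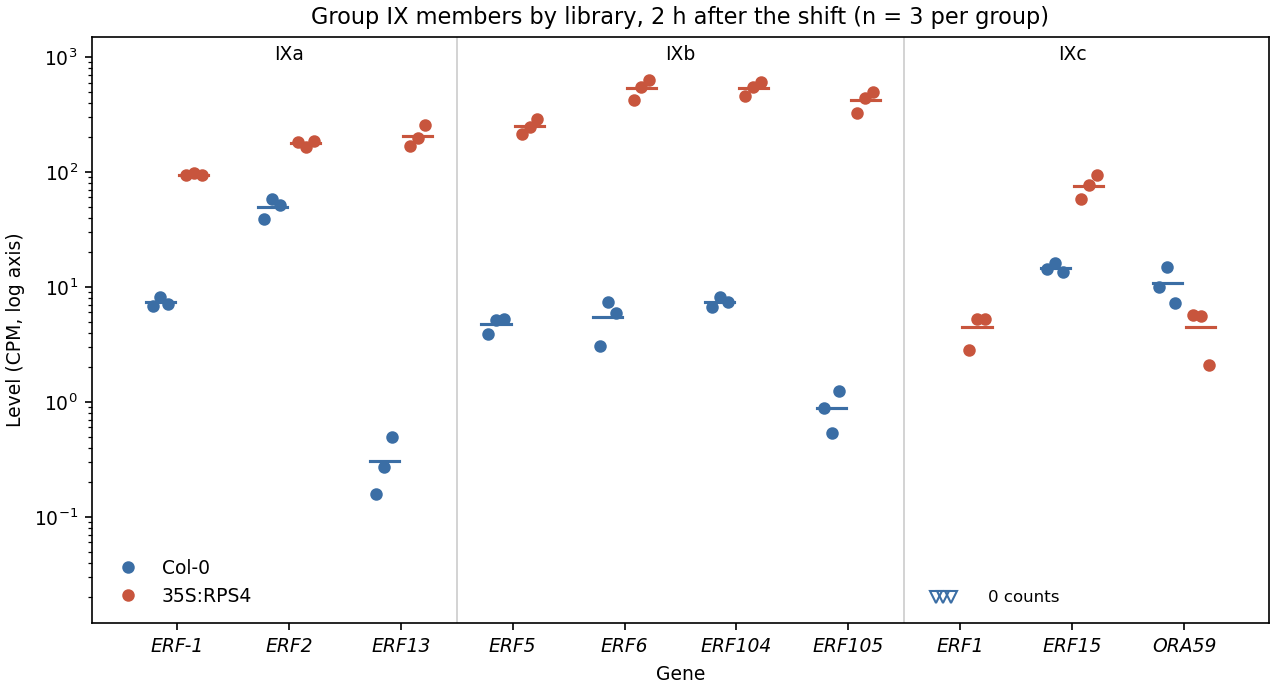
Level of each group IX member in each library, in CPM on a log axis, with Col-0 in blue and 35S:RPS4 in red; points are libraries, short lines are group means (n = 3), and open triangles mark libraries with 0 counts. In 9 genes all red points lie above all blue points, and in ORA59 all 3 lie below, which held for 17.9% and 16.3% of all tested genes.

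Subgroup IXb held the members with the highest levels after RPS4 activation. ERF6, a factor that restrains leaf growth under stress and is stabilised by MPK3 and MPK6, had 3.07, 7.45 and 5.96 CPM in Col-0 and 425, 553 and 635 CPM in 35S:RPS4. The lowest 35S:RPS4 library therefore stood far above the highest Col-0 library. The means were 5.49 ± 2.22 and 538 ± 106 CPM (SD, n = 3), a 98.0-fold difference with a log2FC of 6.61 ± 0.36 (SE, edgeR FDR = 6.95e-05). ERF104, which is bound by MPK6 and released from it upon perception of bacterial flagellin, stood at 6.71, 8.26 and 7.35 CPM in Col-0 and at 460, 548 and 601 CPM in 35S:RPS4. It was 72.0-fold higher, with a log2FC of 6.17 ± 0.15 (SE, edgeR FDR = 1.68e-06). Its 3 Col-0 libraries varied little, with a mean of 7.44 ± 0.775 CPM (SD, n = 3).

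ERF5, the closest relative of ERF6 with an overlapping role in chitin responses and growth restraint, had 3.86, 5.16 and 5.31 CPM in Col-0 and 213, 248 and 287 CPM in 35S:RPS4. The log2FC was 5.71 ± 0.18 (SE, edgeR FDR = 5.92e-06), a 52.0-fold rise. ERF105, known for its role in cold tolerance, was nearly silent in Col-0, with 28, 16 and 40 counts or 0.887, 0.539 and 1.23 CPM. It reached 325, 443 and 500 CPM in 35S:RPS4. Its rise of 469-fold, with a log2FC of 8.88 ± 0.31 (SE, edgeR FDR = 1.42e-05), was the steepest of the 4 IXb members. In the TAIR10.1 annotation ERF105 overlaps AT5G51180 on the opposite strand, and the library kit does not mark strand, so reads in the shared stretch cannot be told apart. AT5G51180 had 754, 732 and 816 counts in Col-0 and 825, 743 and 771 in 35S:RPS4, a log2FC of 0.14 ± 0.08 (SE, edgeR FDR = 0.314). It thus was not called, while ERF105 was.

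**Figure D2:**
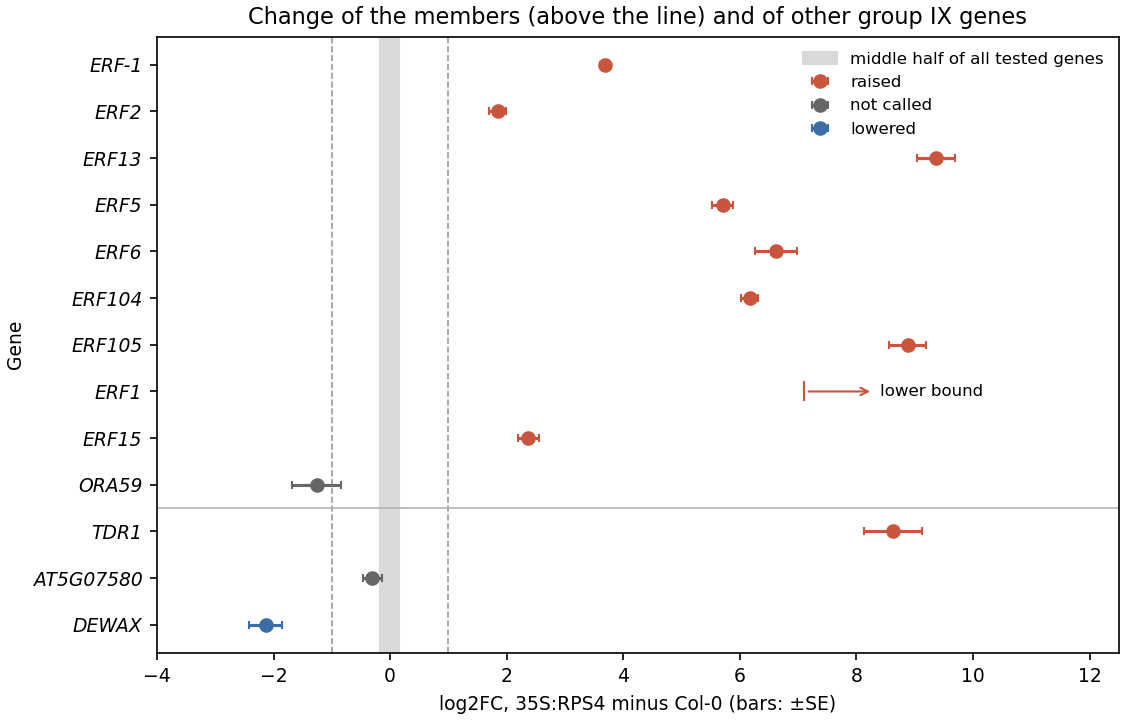
The log2 fold change (35S:RPS4 minus Col-0) of the 10 members, above the horizontal line, and of the 3 other tested group IX genes, below it; bars are standard errors, dashed lines mark an absolute log2FC of 1, and the grey band spans the quartiles of all tested genes, from -0.18 to 0.16. ERF1 is drawn as a lower bound at 7.11, since it had no count in Col-0.

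Subgroup IXa joined 1 gene that was nearly silent in Col-0 with 2 that were not. ERF13, whose overexpression is known to raise sensitivity to abscisic acid, had 5, 8 and 16 counts in the Col-0 libraries, or 0.158, 0.270 and 0.494 CPM. In 35S:RPS4 it reached 167, 197 and 256 CPM. Its log2FC of 9.36 ± 0.32 (SE, edgeR FDR = 1.35e-05) ranked 29 among the 18382 tested genes. Behind this lies a 663-fold ratio of CPM whose denominator rests on 29 counts in all.

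ERF-1, one of the first GCC-box binding proteins described in Arabidopsis, moved from 6.84, 8.19 and 7.13 CPM in Col-0 to 93.8, 97.1 and 94.3 CPM in 35S:RPS4. The libraries within each genotype were close to each other, at 7.39 ± 0.710 and 95.1 ± 1.79 CPM (SD, n = 3). It was 12.9-fold higher, with a log2FC of 3.69 ± 0.09 (SE, edgeR FDR = 1.68e-06). ERF2, an activator of jasmonate-responsive defence genes, had 38.8, 58.5 and 52.1 CPM in Col-0 and 184, 166 and 187 CPM in 35S:RPS4. It therefore had the highest level of the members in Col-0 and the smallest rise, 3.60-fold with a log2FC of 1.85 ± 0.15 (SE, edgeR FDR = 0.000206).

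The promoters of ERF-1 and ERF2 are shown because they shared the longest identical stretch of any pair of members. In the 250 bases before the annotated gene starts (RefSeq, TAIR10.1, 5′ to 3′ on the gene's strand), the longest run common to a pair was 26 bases, between ERF-1 and ERF2. The next longest of the 45 pairs was 13 bases and the median was 8 bases. The shared run is in capitals, starts at position -88 of ERF-1 and -41 of ERF2 (counted back from the gene start), and contains the G-box CACGTG. The ERF-1 window is chr4:9758953-9759202 on the plus strand and the ERF2 window is chr5:19172957-19173206 on the minus strand.
ERF-1: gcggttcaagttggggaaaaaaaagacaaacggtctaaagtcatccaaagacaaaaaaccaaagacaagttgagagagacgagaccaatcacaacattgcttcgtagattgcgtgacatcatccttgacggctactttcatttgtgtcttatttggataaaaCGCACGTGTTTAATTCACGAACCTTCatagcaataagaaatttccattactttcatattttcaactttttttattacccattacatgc
ERF2: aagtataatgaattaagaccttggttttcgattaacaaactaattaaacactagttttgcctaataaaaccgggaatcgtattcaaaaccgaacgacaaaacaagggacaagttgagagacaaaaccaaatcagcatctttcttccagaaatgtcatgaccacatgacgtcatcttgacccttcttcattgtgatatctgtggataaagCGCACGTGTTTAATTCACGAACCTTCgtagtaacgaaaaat

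Subgroup IXc differed among its members. ERF1, which acts directly downstream of EIN3 in the ethylene pathway and also responds to jasmonate, had 0 counts in each of the 3 Col-0 libraries and 85, 154 and 144 counts in 35S:RPS4. Its level there was 2.85, 5.22 and 5.26 CPM. Against a floor of 3 counts over the Col-0 group, ERF1 was at least 138-fold higher in 35S:RPS4 (edgeR FDR = 0.000628). It thus went from undetected at this depth to a level that was still under that of the other 8 raised members. ERF15, a positive regulator of abscisic acid and immune responses, had 14.3, 16.3 and 13.4 CPM in Col-0 and 57.9, 76.7 and 94.0 CPM in 35S:RPS4. It rose 5.17-fold, with a log2FC of 2.37 ± 0.18 (SE, edgeR FDR = 0.000191).

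ORA59, the factor through which jasmonate and ethylene jointly switch on plant defensin genes, ran the other way. It had 10.1, 15.0 and 7.22 CPM in Col-0 and 5.73, 5.56 and 2.08 CPM in 35S:RPS4. The highest 35S:RPS4 library lay below the lowest Col-0 library, yet the spread within both genotypes was wide, at 10.8 ± 3.92 and 4.46 ± 2.06 CPM (SD, n = 3). The log2FC was -1.26 ± 0.41 (SE) and was not called (edgeR FDR = 0.0897). With the replicate number as a block, the log2FC was -1.30 and was called (edgeR FDR = 0.00169). DESeq2 also called it, at -1.27 (FDR = 0.0082). Over 15 alternatives in all it ran from -1.49 to -0.93, the smallest falls being those without 35S:RPS4 replicate 3 or Col-0 replicate 2, and 2 of the 15 called it.

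The promoters of ERF15 and ORA59, IXc genes with opposite signs of log2FC, are shown because they alone among the members held both the GCC-box GCCGCC and the G-box CACGTG, which are in capitals (RefSeq, TAIR10.1, 250 bases before the gene start, 5′ to 3′ on the gene's strand). The GCC-box started at position -224 of ERF15 and -230 of ORA59, counted back from the gene start, and the G-box at -188 and -194. The ERF15 window is chr2:13307573-13307822 on the minus strand and the ORA59 window is chr1:1882657-1882906 on the plus strand.
ERF15: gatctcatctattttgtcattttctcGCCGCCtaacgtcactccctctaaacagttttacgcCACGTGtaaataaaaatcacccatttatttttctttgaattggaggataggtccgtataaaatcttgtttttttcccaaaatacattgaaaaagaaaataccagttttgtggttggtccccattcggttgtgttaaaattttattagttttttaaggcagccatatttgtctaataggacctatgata
ORA59: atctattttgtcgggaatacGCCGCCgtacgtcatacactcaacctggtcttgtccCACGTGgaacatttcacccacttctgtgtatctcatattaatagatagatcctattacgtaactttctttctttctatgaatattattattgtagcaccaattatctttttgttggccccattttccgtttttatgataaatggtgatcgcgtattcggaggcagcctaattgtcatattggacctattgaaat

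On either strand, the GCC-box was found in 2 of the 10 members' windows and in 1.98% of the 17867 windows of tested genes, and both motifs together in 0.229% of them. The G-box was found in 4 members, namely ERF-1, ERF2, ERF15 and ORA59, against 7.35% of all windows. The W-box core TTGAC, the element WRKY factors bind, was in 5 members (ERF-1, ERF2, ERF5, ERF13 and ERF105) against 44.5% of all. The core bound by CAMTA factors has the forms CGCG and CGTG. The form CGCG was in 1 member, ORA59, against 11.0% of all windows, and CGTG was in 7 members against 45.8%. Either form was found in 7 members (ERF1, ERF-1, ERF2, ERF5, ERF6, ERF15 and ORA59) and in 49.3% of all. The G-box contains CGTG, so the matches of these motifs overlap in the 4 members with a G-box. A match only says that the letters are in the window.

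The order of the members' levels differed between the genotypes. Per kilobase of exon, ERF2 was the highest in Col-0 at 37.9 ± 7.67 CPM per kb (SD, n = 3), apart from ERF15 at 12.9 ± 1.29. The next 5, from ORA59 at 9.90 down to ERF5 at 3.67 CPM per kb, each overlapped with their neighbour in the order. ERF105 at 0.919 and ERF13 at 0.276 CPM per kb followed, each apart from the gene above it, with ERF1 at 0 counts. In 35S:RPS4, ERF105 at 438 ± 92.1, ERF6 at 402 ± 79.2 and ERF104 at 386 ± 51.3 CPM per kb overlapped in range and led the list. ERF5 at 192 and ERF13 at 186 CPM per kb came next and overlapped with each other, then ERF2 at 136, ERF-1 at 80.0 and ERF15 at 66.7 CPM per kb. ERF1 at 4.5 and ORA59 at 4.11 CPM per kb closed the order and did not separate. The leading gene in Col-0 was thus sixth of the 10 in 35S:RPS4.

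As a share of the members' summed level per kilobase, ERF2 made 46.5 ± 3.29% (SD, n = 3) in Col-0 and 7.32 ± 1.33% in 35S:RPS4. ORA59 went from 12.1 to 0.230% and ERF15 from 16.0 to 3.49%, although the level of ERF15 had risen. ERF105 went from 1.18 to 23.0%, ERF6 from 4.92 to 21.1% and ERF104 from 6.64 to 20.4%. The 4 IXb members together therefore came to dominate the pool of the 10 members in every 35S:RPS4 library. The summed level of the 10 members was 84.7 to 120 CPM in Col-0 and 1935 to 2662 CPM in 35S:RPS4.

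**Figure D3:**
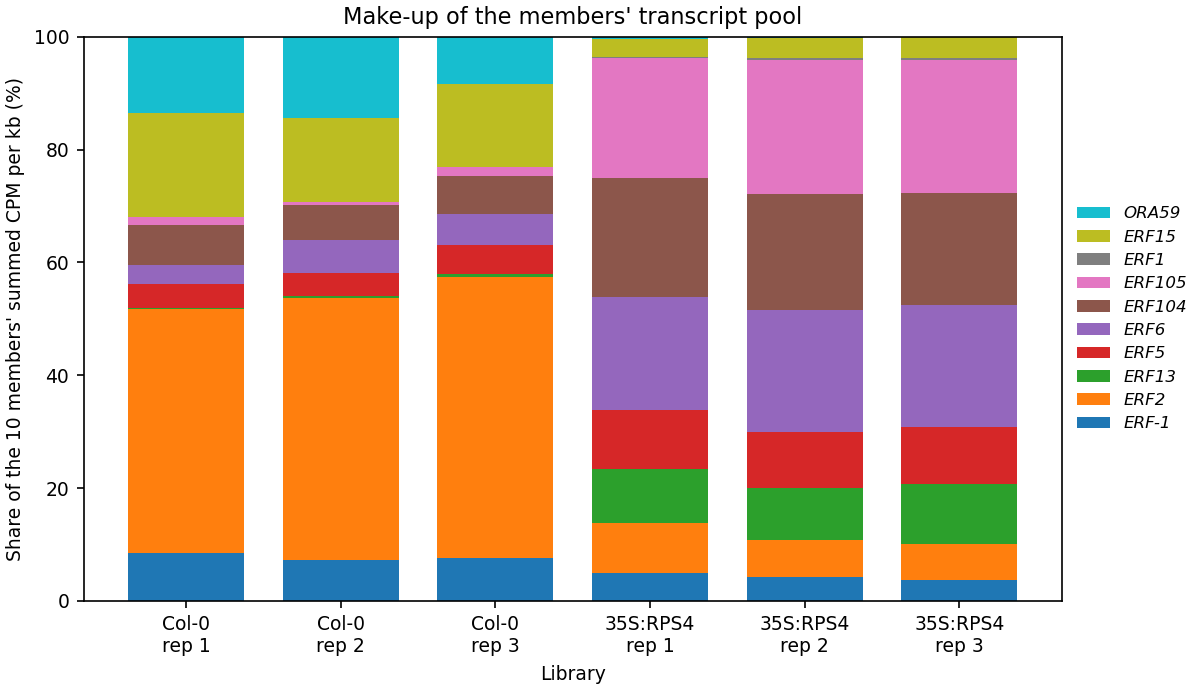
Share of each member in the summed level of the 10 group IX genes, in percent of CPM per kilobase of exon, with 1 bar per library. ERF2 takes 43.2 to 49.8% of the Col-0 bars and 6.51 to 8.86% of the 35S:RPS4 bars, while ERF105, ERF6 and ERF104 each take about the same share of the 35S:RPS4 bars.

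Among the 9 raised members, 8 were lowest in 35S:RPS4 replicate 1. In 7 of them the level in replicate 1 was between 0.544 and 0.80 of the mean of replicates 2 and 3, with ERF1 at the bottom and ERF104 at the top of this range. ERF-1 and ERF2 stood at 0.980 and 1.04, and ORA59 at 1.5. RPS4 itself was at 0.726 in the same library. In Col-0, replicate 1 was also low for several of these genes. The same ratio there was 0.415 for ERF13, 0.458 for ERF6, 0.701 for ERF2, 0.738 for ERF5 and 0.705 for RPS4. ERF104, ERF-1, ORA59 and ERF15 ran from 0.861 to 0.965, ERF105 was near the mean, and ERF1 had no count there. Deviations from the group mean correlated at 0.43 between replicate 1 of Col-0 and replicate 1 of 35S:RPS4. What part the RPS4 level or the replicate had in these values was not tested.

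Several group IX genes are neighbours in the genome, which sets members of different subgroups side by side. ERF6 and ERF-1 lie 5041 bp apart on chromosome 4 and are transcribed away from each other. Within a library, log2 CPM of ERF6 minus that of ERF-1 was -0.51 ± 0.55 (SD, n = 3) in Col-0 and 2.48 ± 0.29 in 35S:RPS4. ERF6 thus moved from slightly below its neighbour to above it, a difference of 2.99. ERF2 and ERF5 are likewise divergent on chromosome 5, with AT5G47229, which had no count, between them. ERF5 minus ERF2 was -3.36 ± 0.11 in Col-0 and 0.47 ± 0.22 in 35S:RPS4, a difference of 3.83. The exact permutation test gave p = 0.10 for each pair (two-sided), the smallest that 3 against 3 libraries allow. In both pairs the IXb gene gained on its IXa neighbour in 3 of 3 libraries of 35S:RPS4.

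**Figure D4:**
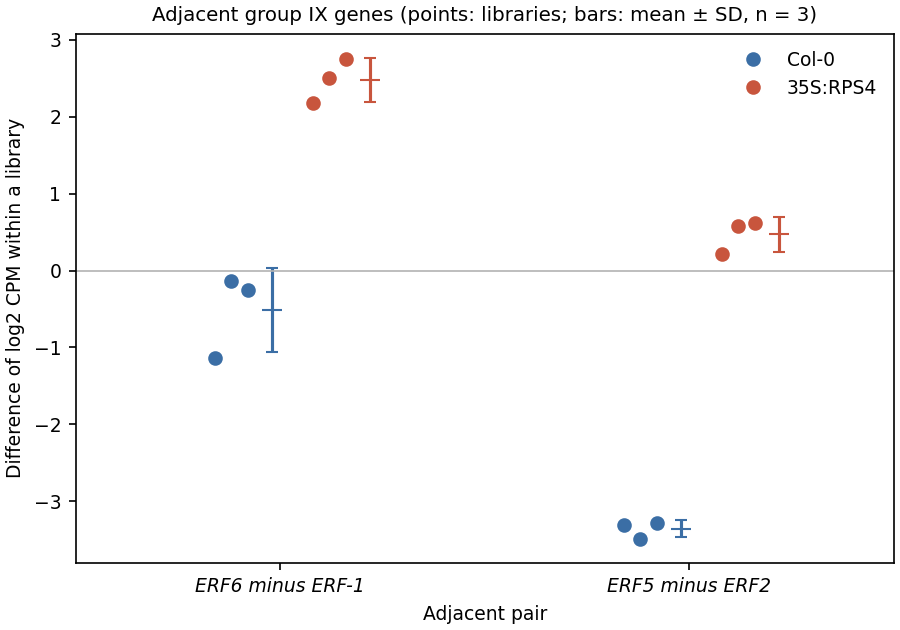
Difference of log2 CPM within each library for the 2 adjacent pairs of group IX genes, with Col-0 in blue and 35S:RPS4 in red; points are libraries and bars are the mean ± SD (n = 3). In both pairs all red points lie above 0 and all blue points below it.

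The tested protein-coding genes next to them, on either side of the members that are not of group IX were not called. Of 15 such genes, 7 had enough counts to be tested and 0 were called by edgeR, DESeq2 or limma voom. Their log2FC values ran from -0.53 to 0.36 with a median of 0.04, and 3 had an unadjusted edgeR p below 0.05. With 6.46% of all tested genes raised and 1.37% lowered by edgeR, 0 of 7 is near that share. A group IX neighbour of ERF104 fell. DEWAX (AT5G61590), a repressor of cuticular wax synthesis that lies 832 bp away on the same strand, had 93.6, 126 and 128 CPM in Col-0 and 38.5, 22.0 and 18.7 CPM in 35S:RPS4. Its log2FC was -2.13 ± 0.28 (SE, edgeR FDR = 0.00243), beside the 6.17 of ERF104. The call was lost with the replicate block (log2FC -2.18), with no filter on low counts, and on leaving out replicate 2 or 3 of Col-0 (both -2.06) or replicate 2 of 35S:RPS4 (-2.02).

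The 7 group IX genes outside the 10 members ranged from silent to levels in Col-0 above those of any member. TDR1 (AT3G23230), known for a role in ascorbate synthesis and salt tolerance, lies 5452 bp from ERF1 and like it was nearly absent in Col-0, with 4, 1 and 4 counts. It had 717, 1274 and 1427 counts in 35S:RPS4, a log2FC of 8.63 ± 0.50 (SE, edgeR FDR = 7.67e-05). AT5G07580 had 76.6, 94.8 and 94.1 CPM in Col-0 and 90.5, 62.1 and 62.2 CPM in 35S:RPS4. Its log2FC was -0.31 and it was not called (edgeR FDR = 0.300). In Col-0, AT5G07580 and DEWAX had mean levels of 88.5 and 116 CPM, above the 49.8 CPM of ERF2, the highest member. Too few counts were found to test the other 4: AT4G18450 had none, and ESE1, AT5G43410 and ERF14 had 2, 2 and 5 counts, all in 35S:RPS4 replicate 3. Of the 3 tested, 1 was raised and 1 lowered, against 6.46% and 1.37% of all tested genes. Their median log2FC was -0.31.

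Around the group IX factors, 17 of 53 tested genes in the other lists were raised and 2 were lowered, against 6.46% and 1.37% of all tested genes. These lists were chosen with earlier results of these data known, so their counts are descriptions and no test. Group VIII ERFs are repressors that can bind the same GCC-box. Of 6 tested, 3 were raised, with a list median log2FC of 0.89. ERF11 had 0.190, 0.202 and 0.154 CPM in Col-0 and 27.4, 44.8 and 48.8 CPM in 35S:RPS4, a log2FC of 7.76 ± 0.34 (SE, edgeR FDR = 2.77e-05). This value lies between those of ERF6 and ERF105. ERF4 rose with a log2FC of 3.38 (edgeR FDR = 5.86e-05) and ERF3 with 1.18 (edgeR FDR = 0.00115), while the other 3 ran from -0.12 to 0.60. The call of ERF3 was lost with upper-quartile factors, which put its log2FC just under 1, and without Col-0 replicate 3 (1.17). Of 8 group X genes, 2 were tested. AT2G33710 rose with a log2FC of 4.05 (edgeR FDR = 0.00325), a call that was lost with limma voom (3.98) and on leaving out replicate 2 or 3 of Col-0 (4.02 and 3.69) or of 35S:RPS4 (3.85 and 3.82). ABR1 had a log2FC of 1.34 and was not called (edgeR FDR = 0.0293). It was called with the block (1.41), with DESeq2 (1.34), at an FDR of 0.05 and when replicate 1 of Col-0 was left out (1.84).

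**Figure D5:**
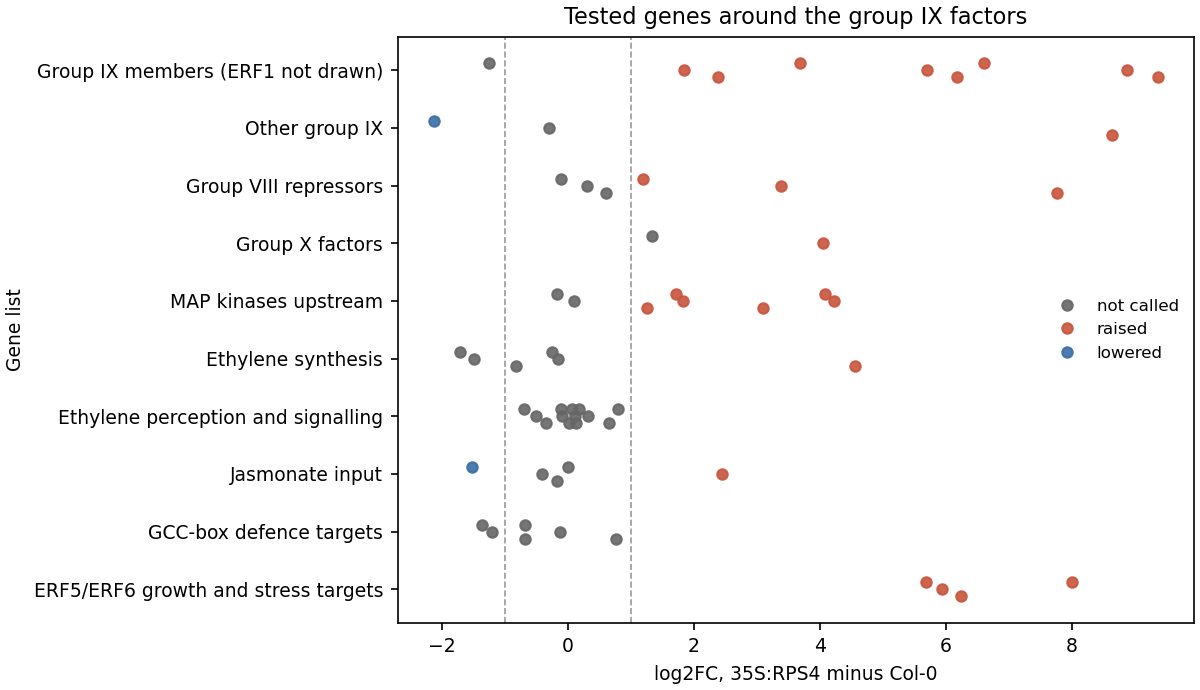
The log2 fold change (35S:RPS4 minus Col-0) of the tested genes in the group IX set and in the lists around it, 1 row per list. ERF1, which had no count in Col-0, is not drawn. Red genes were raised, blue ones lowered and grey ones not called, and dashed lines mark an absolute log2FC of 1. The MAP kinases and the ERF5/ERF6 targets lie mostly to the right, while the ethylene signalling genes and the GCC-box defence targets hold no called gene. Of all tested genes, 6.46% were raised and 1.37% lowered.

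Of the MAP kinase cascade that acts on group IX proteins, 6 of 8 genes were raised, with a median log2FC of 1.77. Among all tested genes 6.46% were raised and 1.37% lowered, and this list was chosen with earlier results of these data known. MPK3, which phosphorylates ERF6, had 48.1, 74.4 and 70.4 CPM in Col-0 and 885, 1271 and 1457 CPM in 35S:RPS4. Its log2FC was 4.23 ± 0.26 (SE, edgeR FDR = 9.38e-05), and that of its activators MKK4 and MKK5 was 4.08 and 1.83. MKK9, an activator of MPK3 and MPK6 tied to ethylene synthesis, rose with a log2FC of 3.10 (edgeR FDR = 1.22e-05). MPK6, the partner kinase of ERF104, had a log2FC of 0.10 and was not called (edgeR FDR = 0.552). MPK3 was thus called and MPK6 was not, and the difference between them was not tested.

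Of the tested ethylene synthesis genes, 1 of 6 was raised and 0 were lowered, with a median log2FC of -0.54. The other 7 of the 13 genes listed had too few counts to be tested, and went both ways. Summed per genotype, ACS2 had 5 counts in Col-0 and 38 in 35S:RPS4, ACS7 0 and 19, and ACS11 1 and 20. In the same order, ACS9 had 0 and 1, ACO1 4 and 6, ACS8 9 and 6, and ACS5 25 and 5. ACS6, an ACC synthase and a known substrate of MPK3 and MPK6, had 4.72, 4.85 and 5.99 CPM in Col-0 and 96.5, 130 and 140 CPM in 35S:RPS4, a log2FC of 4.56 ± 0.18 (SE, edgeR FDR = 1.42e-05). ACS4, another ACC synthase, had a log2FC of -1.72 and was not called (edgeR FDR = 0.0203), but was called lowered with the replicate block (-1.81), with DESeq2 (-1.73), with limma voom (-1.85), at an FDR of 0.05 and without 35S:RPS4 replicate 1 (-2.33). AT1G12010, an ACC oxidase, had a log2FC of -1.49 and was not called (edgeR FDR = 0.0124), but was called lowered with the block (-1.49), with DESeq2, with upper-quartile (-1.66) or library-size scaling (-1.65), with no filter, at an FDR of 0.05 and without that library (-1.75). In the pathway from receptor to nucleus, 0 of 13 genes were called by edgeR, DESeq2 or limma voom. Of all tested genes, edgeR called 6.46% raised and 1.37% lowered. In the pathway 3 genes had an unadjusted edgeR p below 0.05, and log2FC had a median of 0.06 and a range from -0.69 to 0.79. The upper end was the receptor EIN4 (edgeR FDR = 0.00189), whose change was below the fold threshold. EIN3, the master transcription factor of the pathway that acts on ERF1, had 88.2, 104.7 and 101.3 CPM in Col-0 and 94.2, 104.9 and 108.3 CPM in 35S:RPS4, with a log2FC of 0.06. Its range in one genotype thus overlapped that in the other. Whether EIN3 acted on ERF1 in these leaves was not tested. EBF2, which targets EIN3 for degradation, had a log2FC of -0.69 and was not called except without 35S:RPS4 replicate 1 (-1.18).

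In the jasmonate list, 1 of 5 genes was raised and 1 lowered, against 6.46% and 1.37% of all tested genes. The median log2FC of the list was -0.18. MYC2, the main jasmonate transcription factor and an antagonist of the ERF1 and ORA59 branch, rose with a log2FC of 2.44 (edgeR FDR = 0.000198). Its relative MYC4 fell by 1.52 on the log2 scale (edgeR FDR = 0.000337), with 11.1, 9.71 and 10.8 CPM in Col-0 and 4.36, 3.36 and 3.29 CPM in 35S:RPS4. The other 3 were not called, with a log2FC of -0.41 for the receptor COI1.

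Genes that group IX factors are known to act on were taken in 2 lists. The first holds defence genes known as outputs of the GCC-box pathway, although in the 250-base windows searched here GCCGCC was found in 2 of its 6 tested genes, PDF1.2a and PDF1.2b. Of these 6 genes, 0 were called by edgeR, DESeq2 or limma voom and 1 had an unadjusted edgeR p below 0.05. Their median log2FC was -0.68, with a range from -1.37 to 0.76. With 6.46% of all tested genes raised and 1.37% lowered by edgeR, 0 of 6 is near that share. PDF1.2a, the plant defensin used as a marker of ORA59 and ERF1 activity, had 1.65, 5.16 and 3.46 CPM in Col-0 and 0.939, 3.39 and 2.01 CPM in 35S:RPS4. Its libraries overlapped between the genotypes, and the log2FC was -0.69 ± 0.54 (SE, edgeR FDR = 0.485). HEL, also known as PR4, had a log2FC of -0.68 and was not called (edgeR FDR = 0.375). Between libraries that share a replicate number, PDF1.2a, HEL and PDF1.3 were lower in 35S:RPS4 each time. PDF1.2b, PDF1.2c and the chitinase CHI-B were not. The PDF1.2 genes are near-identical copies, so their counts are uncertain.

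All 4 genes of the list of ERF5 and ERF6 targets were raised, with a median log2FC of 6.09, against 6.46% of all tested genes. The list was chosen with earlier results of these data known, so this count is no test of ERF5 or ERF6 activity. STZ, a zinc finger repressor of growth under stress, had 1.46, 2.19 and 2.44 CPM in Col-0 and 387, 545 and 627 CPM in 35S:RPS4, a log2FC of 8.0 ± 0.29 (SE, edgeR FDR = 1.47e-05). GA2OX6, an enzyme that inactivates gibberellin, rose with a log2FC of 6.25 (edgeR FDR = 2.26e-05) and MYB51, a regulator of indole glucosinolates, with one of 5.93 (edgeR FDR = 2.80e-05). WRKY33, which controls camalexin synthesis, rose with a log2FC of 5.69 (edgeR FDR = 0.000156). In STZ, as in ERF6 and most of the raised members (8 of 9), the lowest of the 3 libraries of 35S:RPS4 was replicate 1. Replicate 1 was the lowest for STZ and ERF6 in Col-0 as well. Whether the 4 genes responded to ERF5 or ERF6 in these leaves was not tested.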

How the data were processed

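Polyadenylated leaf RNA of 3 Col-0 and 3 35S:RPS4 samples was sequenced from TruSeq v2 libraries, which do not mark strand. The table deposited by the authors holds raw, unnormalized read counts for each gene; their processing notes name TAIR10, FastQC 0.11.2, TopHat2 2.0.10 and HTSeq, and the counting settings are not given in the sources used here. Entries that are no gene held 6.45 to 8.30% of counts per library and were set aside, among them reads with more than 1 alignment (5.08 to 6.97%), which can lower the counts of near-identical genes. Gene totals were 28659022 to 31007551 counts.

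The test was edgeR's quasi-likelihood fit (version 4.0.16, R 4.3.3) with robust dispersions, TMM scaling, filterByExpr to drop low counts, genotype as the sole term, and a Benjamini-Hochberg FDR over all 18382 tested genes. A gene was called raised or lowered at an FDR below 0.01 and an absolute log2FC above 1. Levels are CPM with TMM factors, fold differences are ratios of the counts pooled per genotype on that scale, and levels are given per kilobase of TAIR10.1 exon length where genes are compared. Differences within adjacent pairs used an exact two-sided permutation test (scipy 1.17.1) of log2 CPM with a prior count of 2. A gene with 0 counts in Col-0 was set against a floor of 3 counts for that genotype at 95% confidence, which covers counting error only. The fit and the permutation test were tested on simulated data.

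The members and lists were chosen with earlier results of these data known. The genes named are the 10 members, RPS4, the other group IX genes, up to 4 called genes per list with the smallest FDR, and called genes against their list's direction. The following were added with their values in view: AT5G51180, ABR1, MPK6, ACS4, AT1G12010, EIN4, EIN3, EBF2 and COI1. Added in the same way were the 7 untested ethylene synthesis genes and the 6 tested GCC-box defence genes. Names and sequences came from RefSeq TAIR10.1, in which 31912 of 32678 identifiers matched.

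Nothing in the labels tells whether a replicate is a plant or a pool of its own, so each p-value reflects only how these libraries vary, which may be technical. Deviations from the group mean correlated at 0.43, 0.13 and 0.28 for pairs that share a number and between other pairs from -0.36 to 0.16, so the numbers were taken to pair the libraries, and a fit with the replicate number as a block was run. Other alternatives were RLE, upper-quartile, library-size and reference-gene scaling, no filter, DESeq2 1.42.0, limma 3.58.1 voom, an FDR of 0.05, a prior count of 5, and leaving out each library.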

Additional observations from a re-analysis of the deposited data

How the results depend on the processing

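Under 15 alternatives, 9 of the 10 members were raised each time, and 135 of 135 values of these 9 genes kept their direction and call. Leaving out each library in turn left 9 members raised, 15 to 18 genes of the other lists against 17, and 841 to 1374 genes of the whole table against 1188. The other settings gave 16 to 19 and 1047 to 1408. Genes lowered in the whole table, 251 at the settings used, were 391 with upper-quartile factors, 377 with library size alone and 381 at an FDR of 0.05. Leaving out a library gave 105 (Col-0 replicate 2), 99 (Col-0 replicate 3), 108 (35S:RPS4 replicate 2) and 128 (35S:RPS4 replicate 3). Upper-quartile and library-size scaling shifted the median log2FC of all genes to -0.17 and -0.16. The cause of these shifts was not tested.

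With the replicate block, which assumes that libraries pair by number, 9 members and 1329 genes were raised and ORA59 was called at -1.30. The block changed no other call among the members. For the adjacent pairs, a paired permutation gave p = 0.25, the smallest that 3 pairs allow, and leaving out each library gave differences of 2.68 to 3.18 for ERF6 and ERF-1 and 3.75 to 3.95 for ERF5 and ERF2. ERF1 in Col-0 is limited by depth, since 0 counts allow up to 3 over the group.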
